A study of Komagataella phaffii GS115 with 3 samples.

Results

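The comparison described here set an hmt-deficient strain of the yeast Komagataella phaffii GS115, grown in regular culture, against GS115 itself, also in regular culture. It used 2 of the 3 RNA-seq libraries of the study, 1 from each strain. The remaining library came from GS115 treated with H2O2, and its levels are given beside those of the pair wherever they place a gene on a wider scale. All 3 libraries share the GS115 background, and the labels name no further allele, no medium and no growth phase. The deposited column of this strain is headed Δhmt, the usual yeast notation for a deletion. The labels neither spell out hmt nor tie it to a locus tag, and the sources used here do not give what the gene encodes, how much of it was removed or whether the strain is 1 clone.

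K. phaffii, long known as Pichia pastoris, is a methylotrophic yeast: it can grow on methanol, and it switches large sets of genes on and off with the carbon source. GS115 is a histidine auxotroph that is widely used to produce proteins. In Saccharomyces cerevisiae, genes next to the chromosome ends are commonly held at low levels by silencing chromatin. Yeast genes of related function are mostly scattered over the genome, but some lie side by side as small clusters.

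Transcript levels were given as FPKM, fragments per kilobase of a gene after scaling by library size, for 5040 protein-coding genes in every library. FPKM is scaled by gene length, so levels of different genes can be compared. Locus tags serve as names throughout, since the reference table repeats the tag as the symbol and gives no gene name or product. The fragment totals fitted to the values were close to 18281810 for the hmt-deficient, 22355450 for the H2O2-treated and 15357655 for the untreated library. A level of 10 FPKM at the median gene length stood for 219 fragments in the hmt-deficient, 268 in the H2O2-treated and 184 in the untreated library. With 1 library on each side none of the differences could be checked against replicates, and none was tested. The intervals are exact 95% intervals on the ratio of recovered fragments and cover counting error only.

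Changes ran in both directions in about equal numbers at 2-fold, and past 4-fold more genes were higher than lower. Log2 ratios are log2 of FPKM plus 1 in the hmt-deficient library over FPKM plus 1 in the untreated library, which understates the change of low genes. Of 4992 genes with 10 FPKM or more in either library, 554 (11.1%) had at least a 2-fold higher level in the hmt-deficient strain and 551 (11%) at least a 2-fold lower one. Over these genes the log2 ratio had a median of -0.07. Past 4-fold there were 166 higher genes (3.33%) and 100 lower genes (2.0%), past 8-fold 72 higher and 26 lower, and past 16-fold 25 higher and 13 lower. Higher genes made up 50.1% of all those past 2-fold; this share was 59.8% after rescaling to TPM and 58.3% after scaling without the 20 highest genes. Those scalings moved the median log2 ratio to 0.05 and 0.03, so which genes near 2-fold are counted depends on the scale. The authors' normalized column, which is FPKM times 1.14 and has no untreated counterpart, raises every ratio by construction; with it the median was 0.13 and the share 65.3%. At the minimum, PAS_chr3_0351 was just inside, with 9.52 FPKM in the hmt-deficient and 10.1 in the untreated library, and PAS_chr4_0468 just outside, with 9.97 and 5.66 FPKM in the same libraries.

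**Figure D1:**
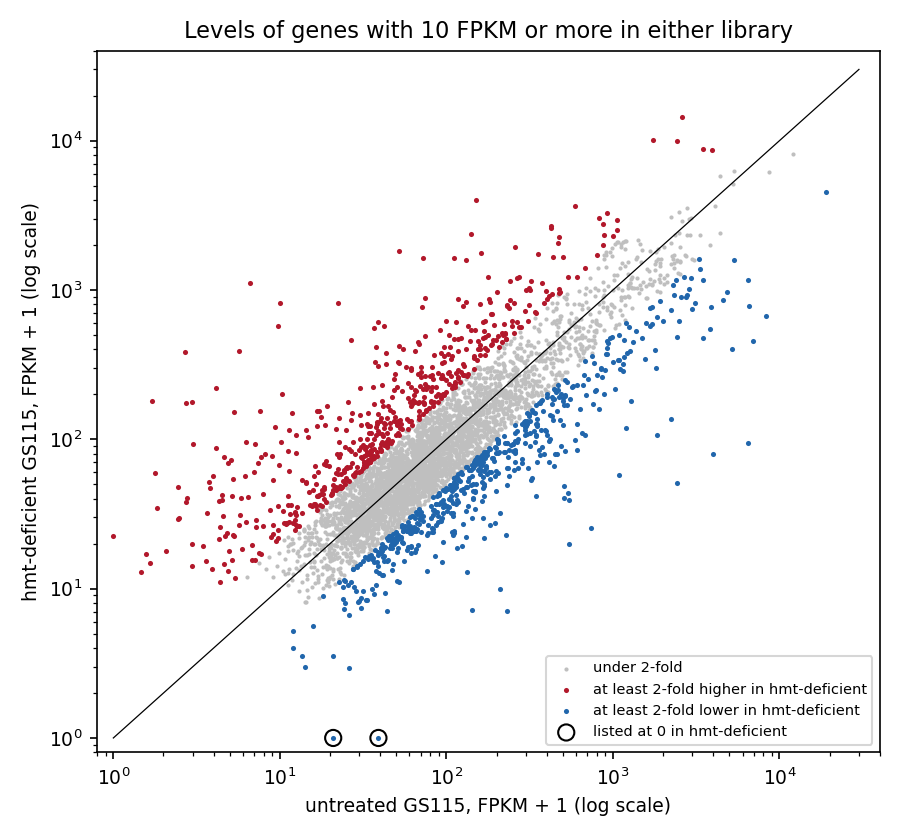
Level of each of 4992 genes in the hmt-deficient library (vertical axis) against the untreated library (horizontal axis), both as FPKM + 1 on log scales. The 554 genes in red were at least 2-fold higher in the hmt-deficient strain, the 551 in blue at least 2-fold lower, the line marks equal levels, and the circled genes were listed at 0 in the hmt-deficient library.

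The genes at least 4-fold higher were mostly low in untreated GS115, whereas those at least 4-fold lower were mostly well expressed there. The 166 higher genes had a median of 173 FPKM in the hmt-deficient, 66.3 in the H2O2-treated and 19.5 in the untreated library. For the 100 lower genes the medians were 58.9 FPKM in the hmt-deficient, 36.3 in the H2O2-treated and 379 in the untreated library. Since either group was picked by the ratio itself, these medians describe the groups and test nothing. The H2O2-treated library took no part in the ratio, and genes grouped by their level in it were split more evenly between the directions. Among the 2546 genes at 20 to 100 FPKM there, the shares at least 2-fold higher and lower were 8.92% and 9.39%. Among the 322 genes at 500 FPKM or more there, 18.3% were higher and 15.5% lower, and among the 85 genes under 5 FPKM that passed the minimum, 20% were higher and 28.2% lower.

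The altered locus could not be read from the labels, and 2 genes with 10 FPKM or more in the other libraries were listed at 0 in the hmt-deficient one. PAS_chr1-4_0287 was listed at 0 FPKM in the hmt-deficient, 42.8 in the H2O2-treated and 38.1 in the untreated library. PAS_chr1-1_0102 was listed at 0 FPKM in the hmt-deficient, 22.3 in the H2O2-treated and 19.9 in the untreated library. The levels of these genes in both GS115 libraries differed by no more than 1.13-fold. Had they kept their untreated levels, 1509 and 644 fragments were to be expected in the hmt-deficient strain. With a floor of 3 fragments in that library, PAS_chr1-4_0287 was at least 503-fold lower and PAS_chr1-1_0102 at least 215-fold lower. PAS_chr1-4_0583, under the minimum and mentioned after its values were seen, was listed at 0 in both the hmt-deficient and the H2O2-treated library and had 1.57 FPKM in the untreated one. Whether any of these is hmt was not tested, as no source used here links the name to a locus.

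The genes directly beside PAS_chr1-4_0287 and PAS_chr1-1_0102 were not listed at 0. Next to PAS_chr1-4_0287, PAS_chr1-4_0286 had 24.4 FPKM in the hmt-deficient and 63.8 in the untreated library, and PAS_chr1-4_0666 had 52.2 and 61.3 FPKM in the same libraries. Next to PAS_chr1-1_0102, PAS_chr1-1_0101 had 48.0 FPKM in the hmt-deficient and 54.1 in the untreated library. On its other side PAS_chr1-1_0103 was 9.48-fold higher (8.28 to 10.9), at 153 FPKM in the hmt-deficient, 334 in the H2O2-treated and 16.2 in the untreated library. These 4 neighbours were taken for their position and not for their values. The gene listed at 0 thus borders one that was expressed much more in the hmt-deficient and H2O2-treated libraries than in the untreated one. In the reverse direction, PAS_chr2-2_0003, the outermost gene at an end of chromosome 2, had 21.4 FPKM in the hmt-deficient strain and 1.53 FPKM after H2O2 and was listed at 0 in the untreated library. With a floor of 3 fragments in the untreated library it was at least 167-fold higher.

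The strongest increases were mostly in genes that were close to silent in untreated GS115. The ratio divides by the untreated level, so picking the highest ratios favours genes that are low there. In the untreated library 4885 of all 5040 genes stood at 10 FPKM or more. Of the 15 highest log2 ratios, 12 belonged to genes under 10 FPKM in the untreated library, and 13 of the 15 reached 100 FPKM or more in the hmt-deficient strain. Their summed level was 10973 FPKM in the hmt-deficient, 2126 in the H2O2-treated and 266 in the untreated library. On chromosome 3 lay 8 of them, and 3 more on chromosome 4, while these chromosomes hold 1198 and 971 of all 5040 genes. Of the genes on chromosome 3, PAS_chr3_0001, PAS_chr3_0002, PAS_chr3_1145 and PAS_chr3_0015 lie close together at the same chromosome end, in runs described below. The median coding length was 1809 bp, against 1197 bp over all genes.

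PAS_chr3_0002 and PAS_chr3_0015 headed the order with log2 ratios of 7.40 and 7.15, and PAS_FragB_0069 followed with 6.73. PAS_FragB_0069, the outermost gene at an end of chromosome 1, had 180 FPKM in the hmt-deficient, 111 in the H2O2-treated and 0.700 in the untreated library. Only 6 fragments stand behind the untreated value, and the 257-fold difference has a wide interval (127 to 757). PAS_chr2-2_0482 had 812 FPKM in the hmt-deficient, 41.7 in the H2O2-treated and 8.99 in the untreated library. It was 90.4-fold higher (81.3 to 101) and has 348 fragments behind its lower, untreated value. PAS_chr3_0095 was 65.9-fold higher (58.0 to 75.0), at 575 FPKM in the hmt-deficient, 45.4 in the H2O2-treated and 8.72 in the untreated library. PAS_chr3_0032, with 4425 bp the longest of the 15, had 174 FPKM in the hmt-deficient, 5.74 in the H2O2-treated and 1.72 in the untreated library, a 101-fold difference (84.4 to 122). For these genes the H2O2-treated level lay between the other libraries, and for all of them but PAS_FragB_0069 it was closer to the untreated one in FPKM.

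A pair of the 15 reached at least the hmt-deficient level after H2O2 as well. PAS_chr3_0403 had 391 FPKM in the hmt-deficient, 398 in the H2O2-treated and 4.68 in the untreated library, and PAS_chr3_1145 had 219, 519 and 3.11 FPKM in the same libraries. They were 83.7-fold (71.1 to 99.2) and 70.2-fold (57.9 to 86.0) higher in the hmt-deficient than in the untreated library. In PAS_chr1-4_0327 the H2O2-treated level was the lowest of the 3: it had 4017 FPKM in the hmt-deficient, 81.6 in the H2O2-treated and 149 in the untreated library. At 27.0-fold (25.1 to 29.1) it had the smallest change of the 15 and by far the highest level, and with 324 bp it was the only one under 600 bp. PAS_chr4_0314 stood at 816 FPKM in the hmt-deficient, 327 in the H2O2-treated and 21.3 in the untreated library. PAS_chr2-1_0642 reached 1811 FPKM in the hmt-deficient strain, against 482 after H2O2 and 51.0 untreated. These last 2 were 38.3-fold (35.3 to 41.6) and 35.5-fold (32.8 to 38.4) higher. The remaining members, PAS_chr4_0357, PAS_chr3_0001, PAS_chr3_0446 and PAS_chr4_0399, were 89.0-fold, 75.4-fold, 45.5-fold and 35.0-fold higher, from untreated levels under 5 FPKM.

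The next 15 genes, ranks 16 to 30, had log2 ratios of 3.85 to 4.49. Their hmt-deficient levels ran from 21.4 to 2374 FPKM with a median of 154. Their H2O2-treated levels ran from 1.53 to 599 FPKM (median 50.8), and their untreated levels from 0 to 140 FPKM (median 6.64). Taken over all 30, the H2O2-treated level lay between the other libraries for 24 genes, above both for 4 and below both for 2.

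**Figure D2:**
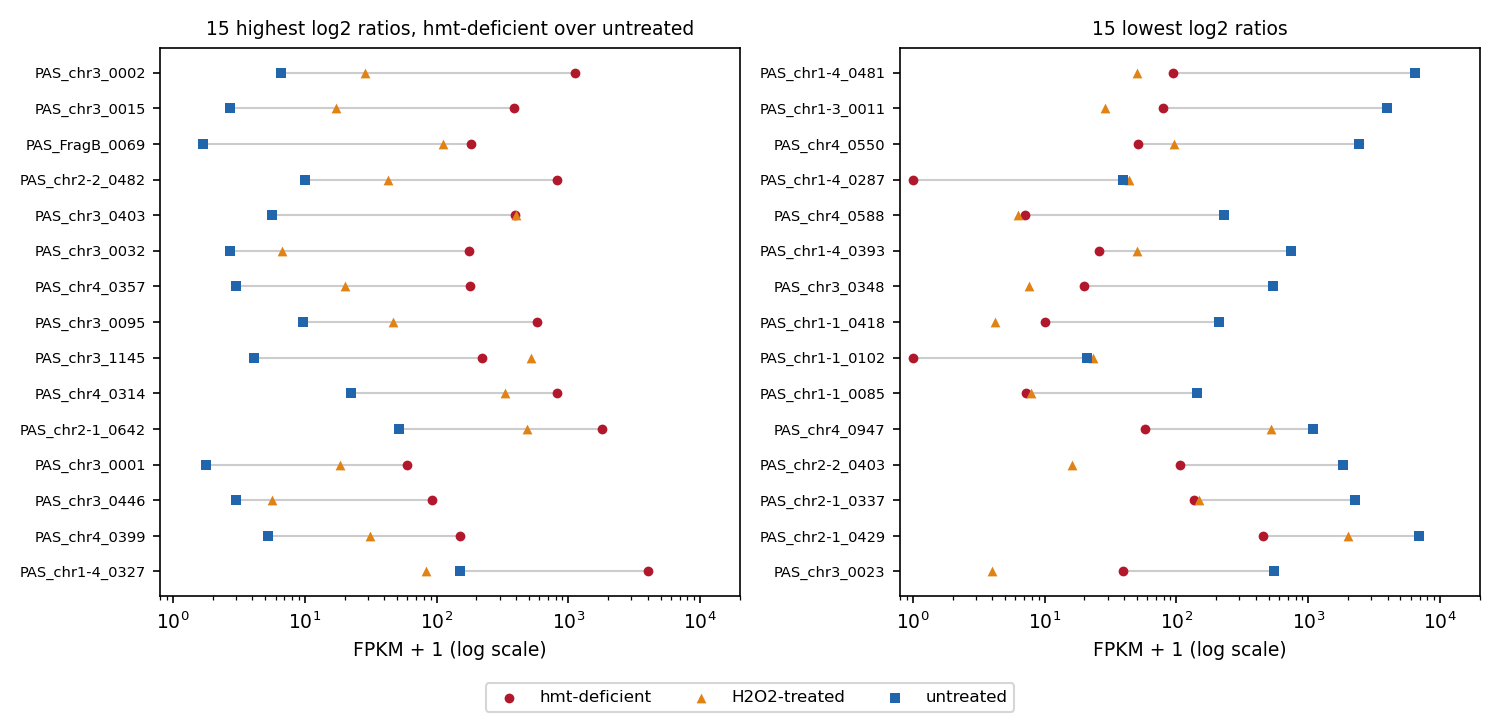
Levels of the 15 genes with the highest (left) and the 15 with the lowest (right) log2 ratio of hmt-deficient over untreated, as FPKM + 1 on a log scale, with circles for the hmt-deficient, triangles for the H2O2-treated and squares for the untreated library. Of the 15 highest, 12 were under 10 FPKM untreated, and 2 of the 15 lowest were listed at 0 in the hmt-deficient library.

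The strongest decreases were mostly in genes that were well expressed in untreated GS115. Picking the lowest ratios favours high untreated levels, so this is a description. Of the 15 lowest log2 ratios, 7 belonged to genes at 1000 FPKM or more in the untreated library. Together the 15 summed to 1076 FPKM in the hmt-deficient, 2981 in the H2O2-treated and 27432 in the untreated library, which is 0.115% of all FPKM in the hmt-deficient and 2.69% in the untreated library. Their median coding length was 891 bp, against 1197 bp over all genes. Of the 15, 4 were under 600 bp, as were 15.5% of all genes.

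PAS_chr1-4_0481, at 279 bp, and PAS_chr1-3_0011 were lowest, with log2 ratios of -6.09 and -5.65. PAS_chr4_0550 had 50.2 FPKM in the hmt-deficient, 94.2 in the H2O2-treated and 2414 in the untreated library, 48.1-fold lower (45.0 to 51.4). PAS_chr4_0588 was 37.8-fold lower (30.5 to 47.2), at 6.10 FPKM in the hmt-deficient, 5.22 in the H2O2-treated and 230 in the untreated library. PAS_chr1-4_0393 was 29.9-fold lower (27.1 to 33.2), at 24.6 FPKM in the hmt-deficient, 49.2 in the H2O2-treated and 737 in the untreated library. In these genes the hmt-deficient and H2O2-treated libraries were both far under the untreated one. PAS_chr3_0348, at 18.9 FPKM in the hmt-deficient, 6.55 in the H2O2-treated and 542 in the untreated library, was 28.7-fold lower (26.1 to 31.6). PAS_chr1-1_0418 and PAS_chr1-1_0085 were near silent in the hmt-deficient strain, at 8.98 and 6.22 FPKM, against 3.19 and 6.85 FPKM after H2O2 and 210 and 141 FPKM untreated.

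In other genes of the 15 the H2O2-treated level was well apart from the hmt-deficient one, above it in some and below it in others. PAS_chr4_0947 had 56.6 FPKM in the hmt-deficient, 523 in the H2O2-treated and 1091 in the untreated library. PAS_chr2-1_0429 had 453 FPKM in the hmt-deficient, 1986 in the H2O2-treated and 6942 in the untreated library. They were 19.3-fold (18.2 to 20.3) and 15.3-fold (14.8 to 15.9) lower in the hmt-deficient strain while keeping more of their level after H2O2. In turn PAS_chr2-2_0403 and PAS_chr3_0023 were lower still after H2O2. They had 106 and 38.2 FPKM in the hmt-deficient, 15.03 and 2.95 after H2O2, and 1842 and 546 untreated. PAS_chr2-1_0337, by contrast, was about level in both: it stood at 135 FPKM in the hmt-deficient, 148 in the H2O2-treated and 2245 in the untreated library, 16.7-fold lower (15.4 to 18.0). Ranks 16 to 30 from the bottom had log2 ratios of -3.69 to -2.84. Their medians were 47.7 FPKM in the hmt-deficient, 40.6 in the H2O2-treated and 533 in the untreated library. Of these 15 genes, 8 were under 600 bp, against 15.5% of all genes. All of these ratios are taken against the 1 untreated library, which the H2O2-treated levels are set beside as well.

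Among abundant genes, those past 2-fold held a sizeable part of the transcript pool. Of 484 genes with 500 FPKM or more in either library, 99 (20.5%) were at least 2-fold higher in the hmt-deficient strain and 114 (23.6%) lower. The 99 made up 17.6% of all FPKM in the hmt-deficient and 4.28% in the untreated library, and the 114 made up 5.86% in the hmt-deficient and 21.5% in the untreated library. Since both groups were picked by the ratio itself, the direction of these shares was fixed by the choice. Their size is a description and tests nothing. The 5 highest ratios in this class were those of PAS_chr3_0002, PAS_chr2-2_0482, PAS_chr3_0095, PAS_chr4_0314 and PAS_chr2-1_0642, described above. The 5 lowest were PAS_chr1-4_0481, PAS_chr1-3_0011, PAS_chr4_0550, PAS_chr1-4_0393 and PAS_chr3_0348.

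The order at the very top changed too, and of the 10 most abundant genes of each library 3 were shared. The following genes were chosen for their rank in level after their values were seen. PAS_chr4_0065, first in the hmt-deficient library, had 14333 FPKM there, 325 after H2O2 and 2580 untreated, 5.56-fold higher than untreated (5.50 to 5.61). The next 2, PAS_chr3_0932 and PAS_chr1-4_0570, were 5.81-fold (5.74 to 5.88) and 4.14-fold (4.10 to 4.17) higher. They had 10054 and 9962 FPKM in the hmt-deficient, 11.4 and 5074 after H2O2, and 1731 and 2408 untreated. PAS_chr4_0627, first in the untreated library, had 4519 FPKM in the hmt-deficient, 479 in the H2O2-treated and 19082 in the untreated library, 4.22-fold lower (4.17 to 4.28). The 3 genes shared by both lists, PAS_chr1-4_0586, PAS_chr4_0883 and PAS_chr2-1_0437, differed by less than 2-fold.

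Coding length moved with the direction among these abundant genes. Of the 181 under 600 bp, 17 (9.39%) were at least 2-fold higher and 61 (33.7%) lower, and the log2 ratio had a median of -0.59. Of the 303 at 600 bp or more, 82 (27.1%) were higher and 53 (17.5%) lower, and the median was -0.04. Over all 4992 genes, 24.8% of the 761 shorter genes and 8.56% of the 4231 longer genes were lower. The part that length had in single short genes, such as PAS_chr1-4_0481, was not tested. With ratios centred within 5 bins of coding length, an alternative chosen after seeing the data, 621 genes were higher and 435 lower, and the 34 genes named by rule for their own levels or ratios, which leaves out those named only as ends of runs, stayed past 4-fold.

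**Figure D3:**
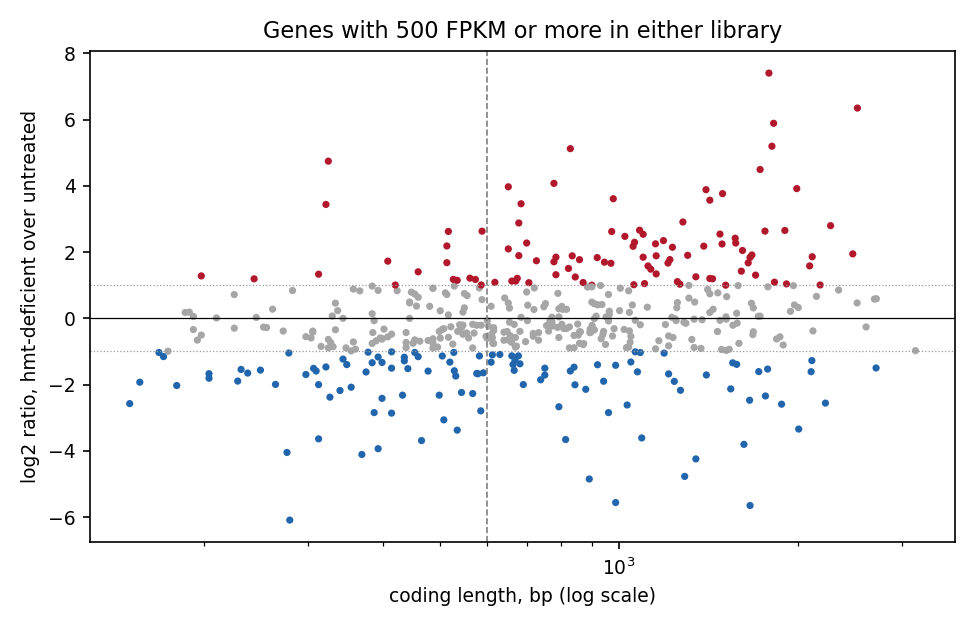
Log2 ratio of hmt-deficient over untreated (vertical axis) against coding length in bp (horizontal, log scale) for the 484 genes with 500 FPKM or more in either library, in red where at least 2-fold higher and in blue where at least 2-fold lower. Left of the dashed line at 600 bp, 61 of 181 genes were lower and 17 higher; right of it 53 of 303 were lower and 82 higher.

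Genes below 5 FPKM in untreated GS115 that reached 20 FPKM or more in the hmt-deficient strain numbered 39, of 79 genes under 5 FPKM (49.4%). In the reverse direction 2 of the 29 genes (6.90%) that were under 5 FPKM in the hmt-deficient strain stood at 20 FPKM or more untreated. Both sets were chosen on the levels compared, so their counts are a description. The 39 had a median of 40.5 FPKM in the hmt-deficient, 17.4 in the H2O2-treated and 3.29 in the untreated library. Their hmt-deficient levels ran from 20.6 to 391 FPKM, and 7 of them reached 100 FPKM. In the H2O2-treated library, which did not enter the choice, 15 of the 39 stood at 20 FPKM or more and 4 under 5 FPKM, with a range of 1.53 to 519 FPKM.

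The 10 with the highest hmt-deficient levels included 8 of the genes named above, from PAS_chr3_0403 at 391 FPKM to PAS_chr3_0446 at 91.8 FPKM. The other two were PAS_chr3_0164, with 86.1 FPKM in the hmt-deficient, 50.8 in the H2O2-treated and 3.13 in the untreated library, and PAS_chr3_0005, with 74.6, 35.3 and 3.63 FPKM in the same libraries. After H2O2, PAS_chr3_0446 and PAS_chr3_0032 were the lowest of these 10, at 4.66 and 5.74 FPKM. PAS_chr2-2_0336, the reverse case besides PAS_chr1-4_0287, was 13.0-fold lower (7.80 to 23.3), at 1.92 FPKM in the hmt-deficient, 0.39 in the H2O2-treated and 25.0 in the untreated library. These low levels rest on 16 fragments in the hmt-deficient library.

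Chromosomes differed in how many of their low genes reached 20 FPKM in the hmt-deficient strain. On chromosome 4 it was 10 of 12 genes under 5 FPKM untreated and on chromosome 3 it was 14 of 25, against 8 of 20 on chromosome 2 and 7 of 22 on chromosome 1. Over all chromosomes it was 39 of 79 (49.4%). The counts per chromosome are small, include neighbours from the runs described below, and were not tested against each other. Choosing genes for being low in 1 library favours higher values in any other library. Genes chosen as low in the H2O2-treated library are not picked on either level of the pair compared. That library may still stand closer to 1 member of the pair than to the other, which was not tested. Of the 119 genes under 5 FPKM there, 35 stood at 20 FPKM or more in the hmt-deficient and 38 in the untreated library, and their medians were 11.6 and 13.2 FPKM in the same libraries. Chosen that way, the low genes had the slightly lower median in the hmt-deficient strain.

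**Figure D4:**
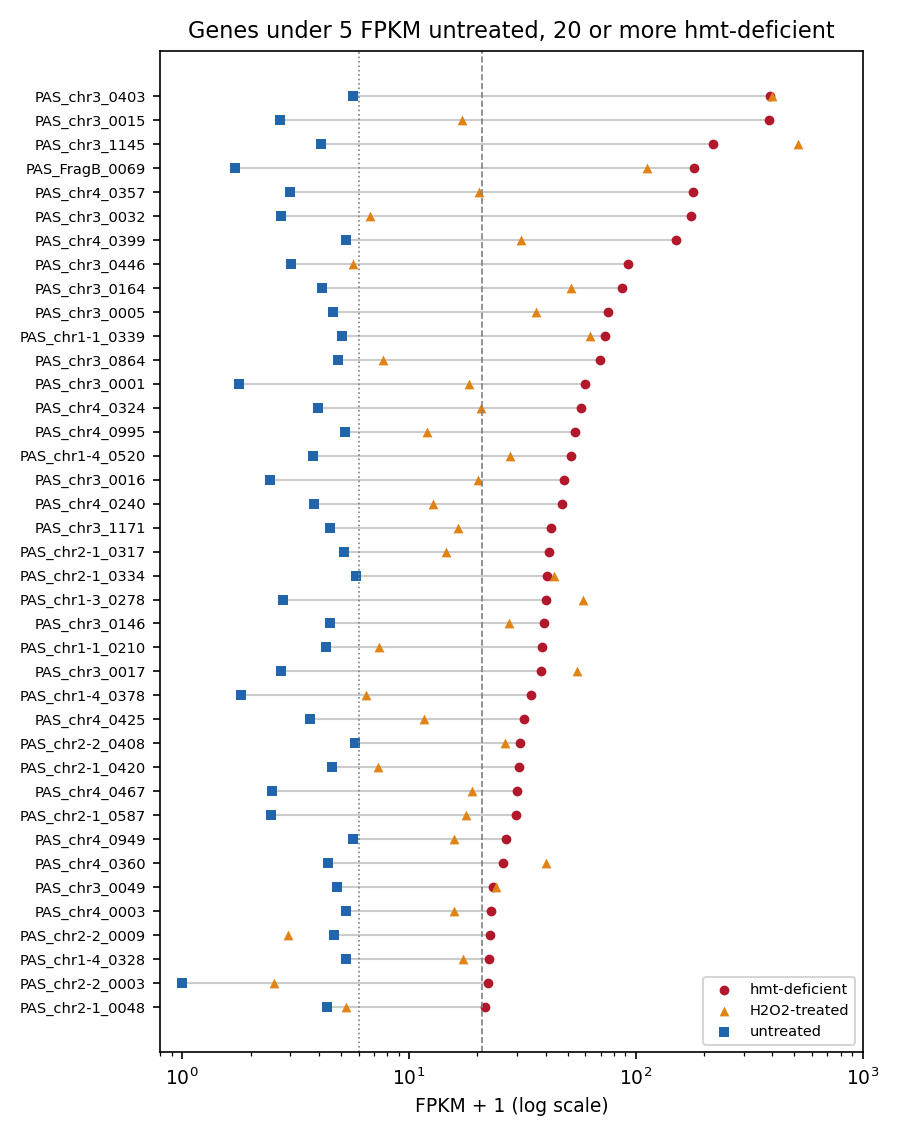
Levels of 39 genes with less than 5 FPKM in the untreated and 20 FPKM or more in the hmt-deficient library, as FPKM + 1 on a log scale, with circles for the hmt-deficient, triangles for the H2O2-treated and squares for the untreated library; the dotted and dashed lines mark 5 and 20 FPKM. In the H2O2-treated library 15 of the 39 stood at 20 FPKM or more.

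Genes that were higher often lay side by side. Of the 554 genes at least 2-fold higher, 215 (38.8%) had a higher gene next to them on the chromosome, against 793 of the 4438 other genes past the minimum (17.9%). For the lower genes the shares were 146 of 551 (26.5%) against 877 of 4441 (19.7%). Gene order was taken from the RefSeq annotation of GS115. Runs of 4 or more neighbours, all past 2-fold in the same direction, numbered 5 among the higher genes, with 33 genes in them, and 2 among the lower genes, with 9. The higher runs held 11 of the 39 near-silent genes described above, beside 33 of all 554 higher genes. Those 39 were higher by their choice, so they could fall in higher runs only. None of the 42 run genes overlaps a neighbour in that annotation; the sources used here do not give whether counting used the strand, so transcripts that read on into a neighbour cannot be told apart from its own.

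A run of 6 genes, PAS_chr3_0001 to PAS_chr3_0010, began at the outermost gene of chromosome 3. Its median was 77.3 FPKM in the hmt-deficient, 31.5 in the H2O2-treated and 8.09 in the untreated library. The first 3 genes changed most, PAS_chr3_0001 by 75.4-fold (43.2 to 147), PAS_chr3_0002 by 199-fold (170 to 235) and PAS_chr3_0005 by 20.5-fold (16.6 to 25.7). PAS_chr3_0010, the last, was 2.90-fold higher (2.42 to 3.49). After a gap of 2 genes whose log2 ratios were 0.77 and 0.96, 8 more genes followed, PAS_chr3_0013 to PAS_chr3_0019, with log2 ratios of 1.02 to 7.15. At rank 19 from the same end the direction had turned, and PAS_chr3_0023 was 14.3-fold lower (13.5 to 15.2).

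A similar run of 6 closed the last end of chromosome 2, from PAS_chr2-2_0009 outward to PAS_chr2-2_0003. Its levels were lower, with a median of 43.5 FPKM in the hmt-deficient, 8.90 in the H2O2-treated and 17.3 in the untreated library. The H2O2-treated level was below the untreated one here, unlike in the run at the end of chromosome 3. Apart from PAS_chr2-2_0003, the changes were 2.05-fold to 5.92-fold. The other 6 chromosome ends had no such run. Among the 6 outermost genes of each, 31 reached 10 FPKM in either library; past 2-fold, 11 were higher, at most 4 of them at any 1 end, and 2 were lower. At the first end of chromosome 1 none of the 5 genes that reached 10 FPKM was at least 2-fold higher, and the sixth gene, PAS_chr1-3_0011, is the one with the second-lowest log2 ratio of all. The outermost gene there, PAS_chr1-3_0003, was under the minimum but higher. It had 4.54 FPKM in the hmt-deficient, 0.24 in the H2O2-treated and 0.308 in the untreated library, a log2 ratio of 2.08. Whether end genes share reads with near-identical copies elsewhere was not tested, as no sequences were used.

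Away from the ends, a run of 8 genes on chromosome 4, PAS_chr4_0357 to PAS_chr4_0949, lay at ranks 369 to 376 from the nearer end. Its median was 61.1 FPKM in the hmt-deficient, 18.0 in the H2O2-treated and 4.92 in the untreated library, and its log2 ratios ran from 1.53 to 5.90. The first gene, PAS_chr4_0357, was 89.0-fold higher (62.3 to 132), at 177 FPKM in the hmt-deficient, 19.3 in the H2O2-treated and 1.99 in the untreated library. The sixth, PAS_chr4_0363, singled out after its values were seen, was 18.0-fold higher (16.7 to 19.4), at 463, 22.6 and 25.7 FPKM in the same libraries. The genes on either side of the run, PAS_chr4_0356 and PAS_chr4_0366, had log2 ratios of -0.01 and 0.16, so the run had clear borders. A run of 5 on chromosome 3, PAS_chr3_0923 to PAS_chr3_1239, was milder, with log2 ratios of 1.03 to 2.26.

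The 2 lower runs held 5 and 4 genes. PAS_chr1-3_0145 to PAS_chr1-3_0149, 5 genes on chromosome 1, had a median of 19.9 FPKM in the hmt-deficient, 17.0 in the H2O2-treated and 64.2 in the untreated library. PAS_chr2-1_0690 to PAS_chr2-1_0693, 4 genes on chromosome 2, had a median of 20.1 FPKM in the hmt-deficient, 34.6 in the H2O2-treated and 59.8 in the untreated library, with log2 ratios of -1.84 to -1.01. This shorter run depended on the scale. The log2 ratio of PAS_chr2-1_0690 was -0.91 after rescaling to TPM and -0.97 after centring on the median, so no run of 4 remained there. Inner genes of runs were put through the alternatives only where they were named for other reasons. Some lay close to 2-fold: PAS_chr2-2_0006 and PAS_chr2-2_0004 at 1.01, PAS_chr3_0014 at 1.02 and PAS_chr3_0925 at 1.03. Whether the runs of these genes stay whole on other scales or pseudocounts was not tested.

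**Figure D5:**
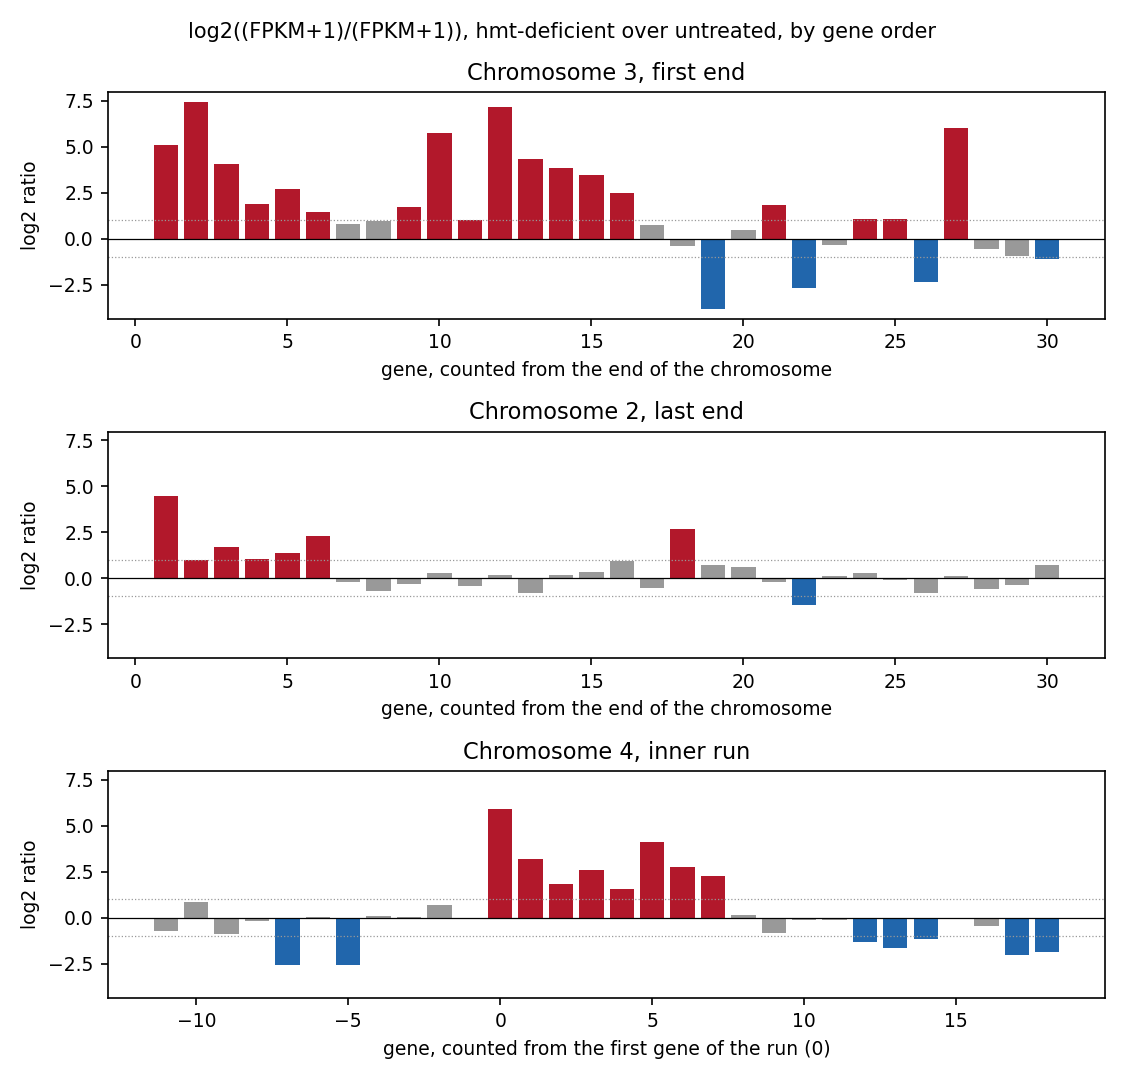
Log2 ratio of hmt-deficient over untreated (bars) for 30 consecutive genes each, counted from the end at 1 end each of chromosomes 3 and 2, and around the inner run on chromosome 4, counted from its first gene; red bars were at least 2-fold higher, blue at least 2-fold lower, and dotted lines mark 2-fold. The end runs of 6 genes, the run of 8 from rank 9 on chromosome 3 and the run of 8 on chromosome 4 stand out as blocks.

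Direct neighbours past 4-fold did not always move together. There were 27 adjacent pairs in which both genes were past 4-fold: 15 pairs with both higher, 6 with both lower and 6 with opposite directions. The genes of the following pairs that the naming rule does not cover were chosen after their values were seen. PAS_chr4_0947, 19.3-fold lower, lies beside PAS_chr4_0337, which was higher at 1630 FPKM in the hmt-deficient, 309 in the H2O2-treated and 71.5 in the untreated library. PAS_chr1-4_0393, 29.9-fold lower, lies between PAS_chr1-4_0392, also lower, and PAS_chr1-4_0675, which was higher. PAS_chr1-4_0392 had 21.9 FPKM in the hmt-deficient, 40.6 in the H2O2-treated and 227 in the untreated library, and PAS_chr1-4_0675 had 1628, 229 and 109 FPKM in the same libraries. PAS_chr3_0032, 101-fold higher, lies beside PAS_chr3_0030, which had 767 FPKM in the hmt-deficient, 60.3 in the H2O2-treated and 3893 in the untreated library. The large changes in the hmt-deficient strain thus included blocks of neighbours with 1 direction and single borders at which the direction turned. Whether such borders were more frequent than genes scattered without order would give was not tested.

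By chromosome the balance varied little. The share of genes at least 2-fold higher was 9.95% on chromosome 1, 11.2% on chromosome 2, 12.5% on chromosome 3 and 11% on chromosome 4. The share at least 2-fold lower was 12.3%, 10.3%, 9.85% and 11.4% on the same chromosomes.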

How the data were processed

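Per the labels' protocols, TRIzol-extracted total RNA was freed of ribosomal RNA and sequenced as paired ends from a stranded kit. Per the submitters' processing notes, the tools were HISAT2, featureCounts, HTSeq, Trimmomatic 0.39 and FastQC 0.12.1; the sources used here do not give their roles, the genome build or the annotation. The authors deposited FPKM per gene; their normalized column of the hmt-deficient library is FPKM times 1.14 and has no untreated counterpart, so deposited FPKM was used and that column served as an alternative only. All 5040 tags were found in the RefSeq table of assembly ASM2700v1, used for coding length and gene order only; 13 gene lists read by product or symbol matched 0 genes. Fragments were recovered as FPKM times coding length times a fitted total. Values that could be checked numbered 1597 (hmt-deficient), 1132 (H2O2-treated) and 3557 (untreated), and 96.7%, 96.3% and 96.9% of them came within 0.1 of a whole fragment. Summed over genes, recovered fragments came to 18646886 (hmt-deficient), 23040416 (H2O2-treated) and 15246733 (untreated). These sums were above the fitted total in the hmt-deficient and H2O2-treated libraries and below it in the untreated one. The cause was not tested. The computation was tested on simulated data.

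Log2 ratios used a pseudocount of 1 FPKM and a minimum of 10 FPKM in either library. Genes were named by rule as those past the minimum and at 0 in a library, the 15 highest and 15 lowest ratios, the 5 at either extreme among genes of 500 FPKM or more, the 10 highest of those under 5 FPKM untreated and at 20 or more in the hmt-deficient strain, all reverse cases, and the ends of runs of 4 or more. Members and lists were chosen with earlier results of these data known. Python 3.11.15, numpy 2.4.6, pandas 2.3.3, scipy 1.17.1 and matplotlib 3.10.9 were used.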

Additional observations from a re-analysis of the deposited data

How the results depend on the processing

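Other pseudocounts, minimums and scalings left the numbers of genes at least 2-fold higher (442 to 741, against 554) and lower (393 to 574, against 551) within 1.5 times. A 4-fold threshold, stricter by construction, gave 166 higher and 100 lower. Of genes under 2 FPKM untreated, 12 reached 20 FPKM or more in the hmt-deficient strain, and of those under 5 FPKM, 16 reached 50 FPKM, against 39 as reported. With 50 in place of 20 FPKM the reverse number was 0, against 2. Of 238 alternative values for the 34 genes named for their own levels or ratios, 73 moved by more than their counting interval or 0.1 on the log2 scale, 165 did not, and 0 changed sign; the smallest log2 ratio in size was 2.12. For 11 further genes named as ends of runs, 11 of 77 alternative values moved that much and 0 changed sign. However, PAS_chr2-1_0690 and PAS_chr1-3_0145 did not stay past 2-fold, at log2 ratios down in size to -0.64 and -0.95, both with centring by coding length. PAS_chr1-3_0145 fell under 2-fold in that setting only. PAS_chr2-1_0690 fell under it in every rescaling, so its run of 4 was lost there, and the cause was not tested. Whether the other runs keep all their members was not tested, as many inner genes were not put through the alternatives. Centring by coding length and leaving out 9 untreated values of few decimals were chosen after seeing the data. The alternatives for gene lists were not run, as no list matched a gene. No paired analysis was possible because each strain has 1 library. Low fragment numbers, such as the 6 behind the untreated value of PAS_FragB_0069, limit the ratios of near-silent genes.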
